A study of Mus musculus with 12 samples.

Results

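Lymphocyte-attracting and homeostatic chemokines and their receptors were followed through lung RNA of 12 mouse libraries, by matching the gene symbol in the deposited expression table to 10 names out of 35599 genes. The set held the interferon-induced ligands Cxcl9 and Cxcl10 with their receptor Cxcr3, the T cell chemokine Ccl5, the pairs Cxcl12 with Cxcr4 and Cxcl13 with Cxcr5, and the ligands Ccl19 and Cxcl16. All 10 were found. The 3 groups of 4 libraries were ND-RHL, AE-PF and saline. Mice of the ND-RHL group were challenged with bleomycin, a drug that causes lung fibrosis, plus lipopolysaccharide (LPS), an inflammatory component of bacterial walls, and were then given liposomes loaded with nintedanib and dexamethasone and coated with hyaluronic acid and an RGD peptide. Mice of the AE-PF group received the same bleomycin and LPS challenge, as a model of an acute exacerbation of pulmonary fibrosis, and no liposomes. The saline group was the control without challenge. The labels state no strain, age, sex, dose or time. They also do not say whether each library was made from its own animal, so the p-values cover the variation among the libraries, which may partly be technical.

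Chemokines are small secreted proteins that attract leukocytes along concentration gradients by binding G protein-coupled receptors on the moving cell. Cxcl9 and Cxcl10 are made by macrophages, endothelium and stroma under interferon, and draw activated T cells and natural killer cells through Cxcr3. Homeostatic chemokines are made without inflammation: Cxcl12 holds leukocytes and progenitors through Cxcr4, Cxcl13 builds B cell follicles through Cxcr5, and Ccl19 guides T cells and dendritic cells through Ccr7. In chronically inflamed lung, Cxcl13 and Ccl19 are known from lymphoid aggregates next to airways and vessels.

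The promoters of 4 ligands are shown because these genes rose in AE-PF lung and 1 of them, Cxcl10, holds interferon and NF-kB motif matches near its start. Each is the reference sequence of RefSeq (GRCm38.p6) on the strand of the gene, 250 bases before to 50 bases after the start. Capitals mark matches to a GAS motif (TTCNNNGAA), an ISRE core (GAAA, any 2 bases, GAAA), the NF-kB consensus or a TATA box (TATAAA), searched on both strands. Cxcl9 lies at chr5:92328030-92328329 (minus strand), Cxcl10 at chr5:92348840-92349139 (minus), Cxcl12 at chr6:117168285-117168584 (plus) and Cxcl13 at chr5:95956689-95956988 (plus).
Cxcl9: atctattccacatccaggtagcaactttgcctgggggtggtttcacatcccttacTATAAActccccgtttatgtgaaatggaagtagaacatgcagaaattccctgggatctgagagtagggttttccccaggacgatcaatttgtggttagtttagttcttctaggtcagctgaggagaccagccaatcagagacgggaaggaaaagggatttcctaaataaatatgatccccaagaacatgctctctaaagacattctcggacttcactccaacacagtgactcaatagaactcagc
Cxcl10: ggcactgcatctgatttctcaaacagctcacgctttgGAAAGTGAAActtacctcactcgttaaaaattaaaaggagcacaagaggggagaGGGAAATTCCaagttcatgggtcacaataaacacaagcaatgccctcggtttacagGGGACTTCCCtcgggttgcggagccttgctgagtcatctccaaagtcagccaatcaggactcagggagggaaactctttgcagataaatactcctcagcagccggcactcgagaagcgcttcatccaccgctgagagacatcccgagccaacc
Cxcl12: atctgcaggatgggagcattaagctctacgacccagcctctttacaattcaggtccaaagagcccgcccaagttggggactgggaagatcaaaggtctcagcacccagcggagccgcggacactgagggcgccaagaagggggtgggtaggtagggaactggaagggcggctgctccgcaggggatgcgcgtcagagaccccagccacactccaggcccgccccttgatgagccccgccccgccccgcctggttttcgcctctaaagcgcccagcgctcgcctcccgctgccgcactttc
Cxcl13: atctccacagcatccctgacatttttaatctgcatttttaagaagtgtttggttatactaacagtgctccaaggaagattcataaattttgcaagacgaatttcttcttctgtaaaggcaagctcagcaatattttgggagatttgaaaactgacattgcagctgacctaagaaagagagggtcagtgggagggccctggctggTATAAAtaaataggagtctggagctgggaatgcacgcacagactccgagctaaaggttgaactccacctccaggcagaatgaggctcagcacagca

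In the Cxcl10 window the ISRE core GAAAGTGAAA stood at bases -213 to -204, and NF-kB matches stood at -159 to -150 (GGGAAATTCC) and -103 to -94 (GGGACTTCCC). The Cxcl9 window held none of these letters and a TATAAA at -195 to -190, the Cxcl13 window a TATAAA at -46 to -41, and the Cxcl12 window no match at all. Of 32851 promoter windows of this length, 3.4% held the ISRE core, 4.5% the NF-kB consensus, 8.3% the GAS motif and 13.6% TATAAA. The Cxcl12 window had a G and C share of 64.7% and 20 CpG sites, against 44.3% and 4 sites for Cxcl9, 50.3% and 10 for Cxcl10, 44% and 3 for Cxcl13, and medians of 52.7% and 7 sites over all windows. Among the other members with a window, Ccl19 also held the ISRE core GAAAGTGAAA (-208 to -199), Cxcr4 a TATAAA (-30 to -25), and Cxcr3 no match.

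Cxcl9 (chr5:92321347-92328079) and Cxcl10 (chr5:92346638-92348889) are neighbours on the minus strand, 18.6 kb apart, in GENCODE M21 on GRCm38. Cxcl13 lies further along the same chromosome (chr5:95956951-95961068), Cxcl12 on chr6:117168535-117181367, Cxcl16 on chr11:70453983-70459984, Ccl5 on chr11:83525778-83530518 and Ccl19 on chr4:42754525-42756577. The receptors lie on chrX:101731535-101734269 (Cxcr3), chr1:128588199-128592293 (Cxcr4) and chr9:44511787-44561877 (Cxcr5). Cxcl10, Cxcr5, Ccl19 and Cxcl16 overlap genes on the opposite strand (Art3, Bcl9l, 4930578G10Rik and Zmynd15), and no source used here states whether strand was used in counting, so reads of these partners could not be told apart. Ccl19 and Ccl21a lie in a cluster with near-identical gene copies, and their values are less certain for that reason too.

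Values are FPKM, fragments per kilobase of gene scaled to library size, as the authors deposited them. Libraries held 16152379 to 21667129 fragments counted to genes, and in a gene of 1 kb 3 fragments stand at 0.138 to 0.186 FPKM. AE-PF library 2 and ND-RHL library 4 differed from the other 10 in transcripts of squamous epithelium and skeletal muscle. The keratin gene Krt13 reached 899 and 2948 FPKM there and at most 0.271 FPKM elsewhere, and the muscle actin Acta1 368 and 955 FPKM, with 78.2 FPKM in saline library 3 and at most 6.10 FPKM in the rest. Defining lung markers were present in each library, with Sftpc, Sftpb, Sftpa1, Ager, Scgb1a1 and Foxj1 summing to 18941 to 39279 FPKM in ND-RHL, 6251 to 10777 in AE-PF and 39471 to 55020 in saline. The comparisons used limma on log2(FPKM + 1) with p-values adjusted over 15164 genes, and genes under an adjusted p of 0.05 were called. Log2 changes below are on that scale, which understates changes of low genes, with the standard error (SE) of the fit. Scaling all libraries to the same FPKM total moved the median log2 change of all genes from -0.03 to 0.09 in AE-PF against saline, and the share of called genes that were higher from 46.7% to 63.1%. In ND-RHL against AE-PF that share was 58.2%, against 37.7% with equal totals and 46.4% with quantile normalisation, and in ND-RHL against saline 60.5%, against 43.5% with quantile normalisation. No member changed direction under equal totals or quantile normalisation.

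Against saline, the AE-PF lung showed a rise of 5 of the 10 members, all of them ligands, and a fall of 0. Cxcl9, Cxcl10, Cxcl13, Cxcl12 and Cxcl16 rose, and the receptors Cxcr3, Cxcr4 and Cxcr5 and the ligands Ccl5 and Ccl19 did not pass. Of all genes tested, 56.6% were called in this comparison, 26.4% as higher. In ND-RHL against AE-PF lung, 4 ligands fell (Cxcl10, Cxcl12, Cxcl13 and Cxcl16) while Ccl5 and all 3 receptors rose, in a background of 41.8% called, 24.3% higher and 17.4% lower. In ND-RHL against saline lung, 3 members rose (Cxcr3, Ccl5 and Cxcr5) and 0 fell, in a background of 21.9% called, 13.3% higher and 8.65% lower. Each pair of comparisons shares a group, so their values are not independent.

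**Figure D1:**
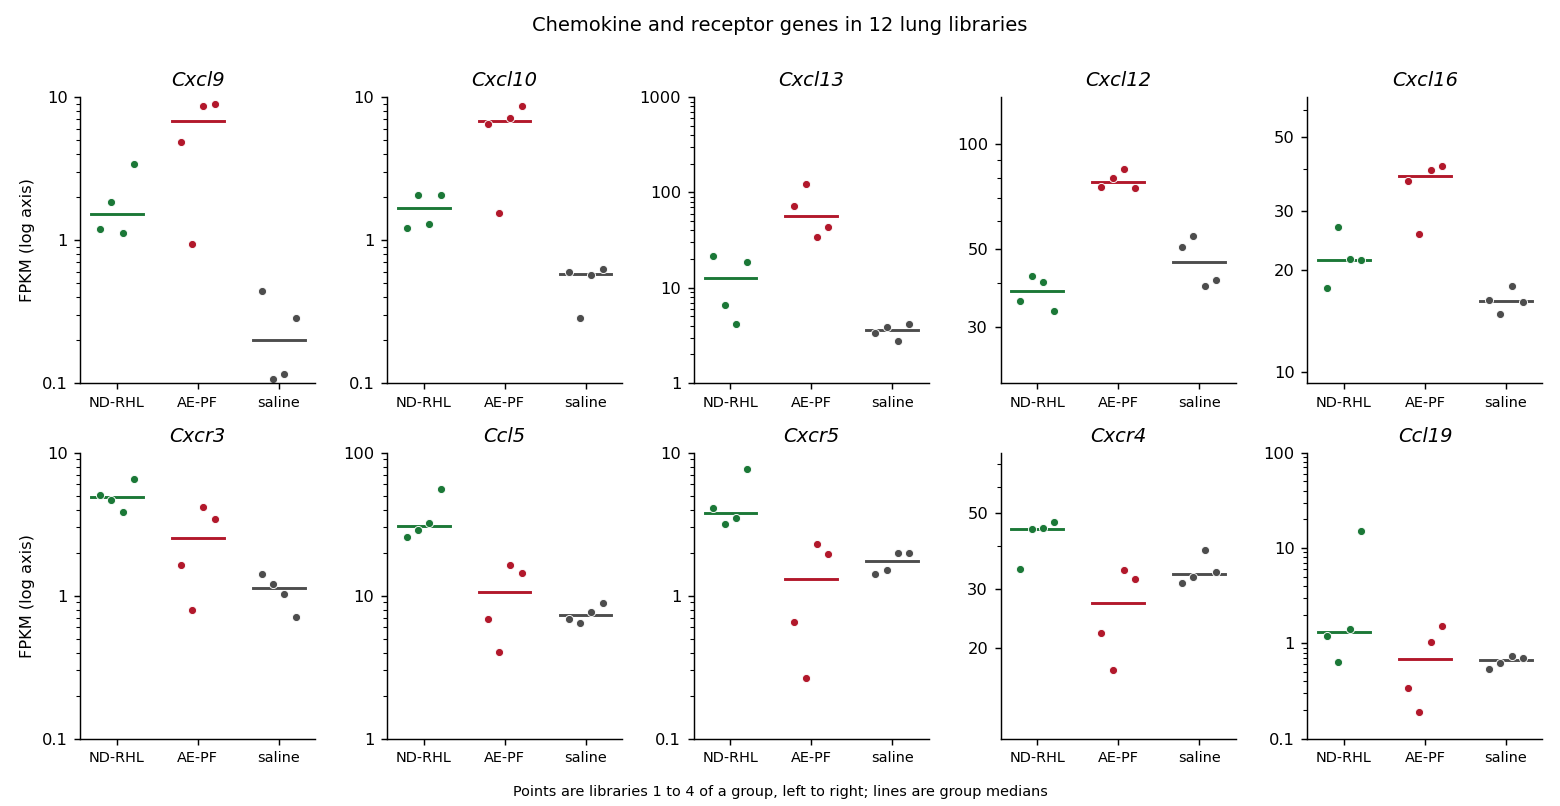
FPKM of the 10 genes (log axis) in each library of the ND-RHL, AE-PF and saline groups, with 4 points per group and a line at the group median. The upper row holds the ligands that were highest in AE-PF lung, and the lower row Ccl19 and the genes whose median was highest in ND-RHL lung, where AE-PF libraries 1 and 2 lay below libraries 3 and 4.

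Cxcl9 was at 4.85, 0.936, 8.72 and 8.90 FPKM in AE-PF libraries 1 to 4, against 0.444, 0.107, 0.115 and 0.284 FPKM in saline libraries 1 to 4. Every AE-PF library lay above every saline library, and AE-PF library 2 was far below its group. These saline values rest on 6 to 29 fragments per library, and the AE-PF values on 51 to 486. The mean was 5.85 ± 3.77 FPKM in AE-PF and 0.238 ± 0.160 FPKM in saline lung (SD, n = 4 each), a log2 change of 2.22 (SE 0.45, adjusted p = 0.00144).

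Cxcl10 was at 6.44, 1.55, 7.11 and 8.71 FPKM in AE-PF libraries 1 to 4, against 0.594, 0.288, 0.573 and 0.625 FPKM in saline libraries. It followed the same order as Cxcl9, with library 2 lowest in AE-PF. Its mean was 5.95 ± 3.09 FPKM in AE-PF and 0.520 ± 0.156 FPKM in saline lung (SD, n = 4 each), and the log2 change was 2.04 (SE 0.34, adjusted p = 0.000421). The overlapping Art3 moved the other way, at 3.67 ± 1.10 FPKM in AE-PF and 8.77 ± 1.64 FPKM in saline lung (n = 4 each).

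In ND-RHL libraries 1 to 4 Cxcl9 was at 1.20, 1.85, 1.13 and 3.41 FPKM, and Cxcl10 at 1.22, 2.06, 1.305 and 2.07 FPKM. These lay between the groups: above every saline library and below AE-PF libraries 1, 3 and 4. AE-PF library 2 lay below all ND-RHL libraries for Cxcl9 and among them for Cxcl10. Against AE-PF, Cxcl10 fell by 1.24 on the log2 scale (SE 0.34, adjusted p = 0.0135). Cxcl9 had a log2 change of -1.05 (SE 0.45, 95% interval -2.04 to -0.07) and did not pass (adjusted p = 0.0802). Without AE-PF library 2 the Cxcl9 change was -1.58 (adjusted p = 0.00141). Against saline, the ND-RHL changes were 1.17 for Cxcl9 (adjusted p = 0.0839) and 0.80 for Cxcl10 (adjusted p = 0.116), and neither passed. Without AE-PF library 2, which enters that comparison only through the shared estimate of the spread, their adjusted p were 0.00681 and 0.00286.

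The log2 ratio of Cxcl9 to Cxcl10, each plus 1 FPKM, asked whether the neighbours changed by different amounts. It averaged -0.11 ± 0.31 in AE-PF and -0.30 ± 0.15 in saline libraries (SD, n = 4 each; exact permutation test, 2-sided, p = 0.4). It was 0.07 ± 0.30 in ND-RHL against -0.11 ± 0.31 in AE-PF libraries (n = 4 each; exact permutation p = 0.457). With 70 labelings the smallest possible p is 0.0286, and the 2 p-values adjusted together were 0.457. The added 1 FPKM exceeds every saline value of both genes and so holds their ratio near 0. By the ratio of means Cxcl9 was 24.6 and Cxcl10 11.5 times as high in AE-PF as in saline lung, and with 0.1 FPKM added the difference in AE-PF against saline was 0.77 (exact permutation p = 0.0857).

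**Figure D2:**
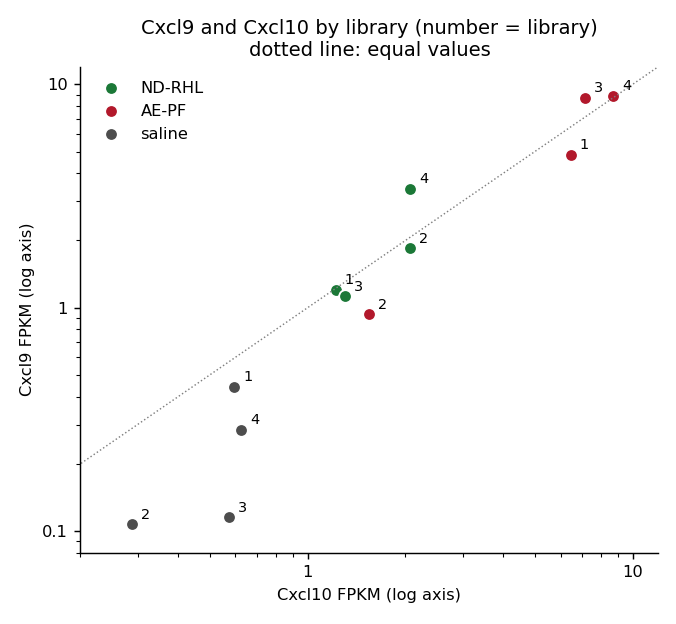
Cxcl9 against Cxcl10 in each of the 12 libraries, both as FPKM on log axes, with the library number beside each point and a dotted line at equal values. Libraries lie along the line in the order saline, ND-RHL, AE-PF, except AE-PF library 2 (0.936 and 1.55 FPKM), which lies among the ND-RHL libraries for Cxcl10 and below them for Cxcl9, and the saline points fall below the line.

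Cxcl11, the remaining ligand of Cxcr3, lies next to Cxcl10 and is annotated in the table as a polymorphic pseudogene. It was at or below 0.117 FPKM in each library and was not tested. Ifng, the cytokine that induces Cxcl9, reached at most 0.256 FPKM and was not tested either.

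Cxcr3 parted from its ligand Cxcl10 in ND-RHL against AE-PF lung, where Cxcr3 rose and Cxcl10 fell. Cxcr3 was at 1.63, 0.799, 4.16 and 3.42 FPKM in AE-PF libraries 1 to 4, against 1.41, 1.22, 1.03 and 0.706 FPKM in saline libraries. Libraries 3 and 4 of AE-PF lay above saline, and libraries 1 and 2 lay near it. The log2 change was 0.64 (SE 0.29, 95% interval 0.00432 to 1.27, adjusted p = 0.0796), and without AE-PF library 2 it passed at 0.92 (adjusted p = 0.00624). In ND-RHL libraries Cxcr3 was at 5.08, 4.65, 3.84 and 6.58 FPKM. Its mean was 5.04 ± 1.15 FPKM in ND-RHL and 1.09 ± 0.300 FPKM in saline lung (n = 4 each), a rise of 1.52 (SE 0.29, adjusted p = 0.00457) with no overlap. Against AE-PF (2.50 ± 1.56 FPKM) Cxcr3 rose by 0.89 (SE 0.29, adjusted p = 0.0288). That call was lost in 7 of 21 alternatives, among them without AE-PF library 2 (0.61, adjusted p = 0.0578), and without it and ND-RHL library 4 the change was 0.49 (adjusted p = 0.116).

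Ccl5 is a chemokine made in quantity by T cells and natural killer cells. On the log2(FPKM + 1) scale it had the largest upward change of the members in ND-RHL lung. By the ratio of means it did not. Against saline, Cxcl9 was 7.99, Ccl19 6.99 and Ccl5 4.78 times as high. Against AE-PF, Ccl19 was 5.90, Cxcr5 3.57 and Ccl5 3.41 times as high. The Ccl19 ratios rest largely on ND-RHL library 4. Ccl5 was at 25.7, 29.0, 32.2 and 56.0 FPKM in ND-RHL libraries 1 to 4. It was at 6.85, 4.04, 16.5 and 14.4 FPKM in AE-PF and 6.87, 6.46, 7.70 and 8.85 FPKM in saline libraries. Every ND-RHL library lay above every library of the other groups, and AE-PF libraries straddled saline. Ccl5 averaged 35.7 ± 13.8 FPKM in ND-RHL, 10.5 ± 5.96 FPKM in AE-PF and 7.47 ± 1.05 FPKM in saline lung (SD, n = 4 each). The log2 change was 1.79 in ND-RHL against AE-PF (SE 0.36, adjusted p = 0.00282) and 2.06 in ND-RHL against saline (SE 0.36, adjusted p = 0.00322). In AE-PF against saline it was 0.27 (95% interval -0.53 to 1.07, adjusted p = 0.546).

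Ccr1, a Ccl5 receptor of monocytes and neutrophils, averaged 5.72 ± 0.978 FPKM in ND-RHL, 21.4 ± 6.33 FPKM in AE-PF and 5.85 ± 1.98 FPKM in saline lung (n = 4 each).

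Cxcl12, the member with the highest mean in AE-PF and in saline lung, rose in AE-PF lung with little spread. It was at 75.3, 79.8, 84.7 and 74.7 FPKM in AE-PF libraries 1 to 4, against 50.9, 54.6, 39.4 and 40.9 FPKM in saline libraries. The groups did not overlap, and AE-PF library 2 lay within the range of its group here. The log2 change was 0.76 (SE 0.11, adjusted p = 0.000154). In ND-RHL libraries Cxcl12 was at 35.6, 41.9, 40.3 and 33.3 FPKM, below every AE-PF library, a log2 change of -1.04 against AE-PF (SE 0.11, adjusted p = 6.50e-05). Against saline the ND-RHL change was -0.28 (95% interval -0.52 to -0.04) and did not pass (adjusted p = 0.0847).

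Its receptor Cxcr4, which is carried by most leukocytes, ran against the ligand. Cxcr4 was at 34.3, 45.0, 45.2 and 47.2 FPKM in ND-RHL libraries, 22.2, 17.3, 34.1 and 32.1 FPKM in AE-PF libraries and 31.1, 32.5, 38.9 and 33.5 FPKM in saline libraries. AE-PF libraries 1 and 2 were lower than any other, and each ND-RHL library lay above each AE-PF library, by a narrow margin for ND-RHL library 1. ND-RHL rose by 0.72 against AE-PF (SE 0.19, adjusted p = 0.0107). The AE-PF change against saline was -0.40 (95% interval -0.81 to 0.02, adjusted p = 0.0920). Leaving out AE-PF library 3 gave -0.53 (adjusted p = 0.0289), leaving out library 4 gave -0.50 (adjusted p = 0.0473), and both passed, while leaving out library 2 gave -0.22 (adjusted p = 0.246).

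Ackr3, the atypical receptor that binds Cxcl12 and removes it, followed the ligand. It was at 30.2, 44.9, 35.5 and 34.4 FPKM in AE-PF libraries, against 16.7, 16.5, 18.9 and 19.0 FPKM in saline libraries, a rise of 0.98 (SE 0.12, adjusted p = 5.41e-05). In ND-RHL libraries it was at 11.2, 13.2, 11.8 and 15.5 FPKM, below all others. The log2 change was -1.41 against AE-PF (adjusted p = 2.42e-05) and -0.44 against saline (adjusted p = 0.0254), and the call against saline was lost in 6 of 22 alternatives. Dpp4, a peptidase that trims the ends of Cxcl10 and Cxcl12, averaged 23.4 ± 3.26 FPKM in ND-RHL, 9.26 ± 4.09 FPKM in AE-PF and 20.2 ± 0.791 FPKM in saline lung (n = 4 each).

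Cxcl13 showed the largest change of all members on the log2(FPKM + 1) scale. It was at 71.5, 124, 34.1 and 43.1 FPKM in AE-PF libraries 1 to 4, against 3.37, 3.85, 2.76 and 4.20 FPKM in saline libraries. Within AE-PF library 2 was highest and libraries 3 and 4 lowest, while Cxcl9 was lowest in library 2 and highest in libraries 3 and 4. The mean was 68.1 ± 40.4 FPKM in AE-PF and 3.54 ± 0.624 FPKM in saline lung (SD, n = 4 each), 19.2 times as high, and the log2 change was 3.76 (SE 0.49, adjusted p = 7.36e-05). By the ratio of means Cxcl9 came first, 24.6 times as high, and with limma-voom on fragments the log2 changes were 4.36 for Cxcl9 and 4.10 for Cxcl13. In ND-RHL libraries Cxcl13 was at 21.4, 6.62, 4.21 and 18.6 FPKM, below every AE-PF library, and library 3 was just above the highest saline library. The change was -2.41 against AE-PF (SE 0.49, adjusted p = 0.00268). Against saline it was 1.35 (95% interval 0.28 to 2.42, adjusted p = 0.0684), and it passed without AE-PF library 2 (adjusted p = 0.0426) or ND-RHL library 3 (1.73, adjusted p = 0.0235).

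Cxcr5, the Cxcl13 receptor on B cells and follicular helper T cells, did not rise with the ligand. It was at 0.652, 0.266, 2.29 and 1.96 FPKM in AE-PF libraries, against 1.43, 1.51, 1.98 and 1.98 FPKM in saline libraries, a change of -0.35 (95% interval -1.03 to 0.32, adjusted p = 0.350). The AE-PF library with the highest Cxcl13, library 2, had the lowest Cxcr5, on 16 fragments. In ND-RHL libraries Cxcr5 was at 4.12, 3.16, 3.47 and 7.69 FPKM, above every other library. It rose by 1.34 against AE-PF (SE 0.31, adjusted p = 0.00559) and by 0.98 against saline (SE 0.31, adjusted p = 0.0416). The call against saline was lost in 10 of 21 alternatives, with an adjusted p of up to 0.0999. The overlapping Bcl9l was at 12.5 ± 0.700 FPKM in ND-RHL, 10.6 ± 0.886 FPKM in AE-PF and 17.3 ± 1.82 FPKM in saline lung. Its share in the Cxcr5 reads was not tested.

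Ccl19 was low in nearly all libraries. It was at 1.20, 0.643, 1.43 and 14.9 FPKM in ND-RHL libraries 1 to 4, 0.339, 0.191, 1.02 and 1.53 FPKM in AE-PF libraries and 0.532, 0.622, 0.744 and 0.705 FPKM in saline libraries. ND-RHL library 4, which carries the squamous transcripts, held 225 fragments of Ccl19, and each other library held 3 to 24. Glycam1 and Madcam1, genes of the vessels through which lymphocytes enter lymphoid organs, also stood apart in that library, at 4.69 and 0.520 FPKM, against at most 0.129 and 0.205 FPKM in the others. Its T and B cell marker sums (188 and 215 FPKM) were the highest of the 12 libraries. The part of lymphoid tissue in these Ccl19 values was not tested. No comparison passed, with adjusted p of 0.176 for ND-RHL against AE-PF, 0.962 for AE-PF against saline and 0.213 for ND-RHL against saline. Without ND-RHL library 4 the change against AE-PF was 0.29, in place of 1.02. The sign of the AE-PF change against saline (0.04) turned with a pseudocount of 0.1, with limma-voom and without AE-PF library 3 or 4. Ccl21a, which shares the receptor Ccr7 with Ccl19, was far more abundant and rose in AE-PF lung, at 125 ± 29.0 FPKM against 60.7 ± 8.16 FPKM in saline (n = 4 each; 1.00, adjusted p = 0.00801). In ND-RHL libraries Ccl21a was at 67.5, 80.1, 77.3 and 170 FPKM, with library 4 again highest. Ccr7, borne by naive T cells and mature dendritic cells, averaged 15.2 ± 8.01 FPKM in ND-RHL, 9.55 ± 5.10 FPKM in AE-PF and 5.04 ± 0.646 FPKM in saline lung. Its rise in ND-RHL against saline (1.31, adjusted p = 0.0369) was lost in 8 of the alternatives.

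Cxcl16, a chemokine anchored in the membrane of macrophages and endothelium, rose in AE-PF lung to 36.8, 25.7, 39.7 and 40.9 FPKM, against 16.3, 14.8, 18.01 and 16.1 FPKM in saline libraries. Again library 2 was the lowest of its group. The change was 1.07 (SE 0.15, adjusted p = 0.000121). In ND-RHL libraries it was at 17.7, 26.9, 21.6 and 21.4 FPKM, a change of -0.68 against AE-PF (SE 0.15, adjusted p = 0.00432), with ND-RHL library 2 above AE-PF library 2. Against saline it was 0.39 (95% interval 0.07 to 0.72, adjusted p = 0.0803), which passed in 4 of 22 alternatives, among them without AE-PF library 2 (adjusted p = 0.0211). Adam10, the protease that sheds Cxcl16 from the cell, averaged 40.5 ± 3.83 FPKM in ND-RHL, 51.2 ± 3.85 FPKM in AE-PF and 30.6 ± 0.844 FPKM in saline lung (n = 4 each). Its changes were -0.33 in ND-RHL against AE-PF (adjusted p = 0.00365) and 0.72 in AE-PF against saline (adjusted p = 1.24e-05). Cxcr6, the receptor of Cxcl16 on T cells, was at 2.49, 0.888, 6.82 and 6.92 FPKM in AE-PF libraries and 1.96 to 2.72 FPKM in saline libraries, and passed in no comparison. Without AE-PF library 2 it passed in AE-PF against saline. The overlapping Zmynd15 moved with Cxcl16, at 7.54 ± 1.69 FPKM in AE-PF and 3.52 ± 0.349 FPKM in saline lung (n = 4 each), and its share in the Cxcl16 reads was not tested.

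**Figure D3:**
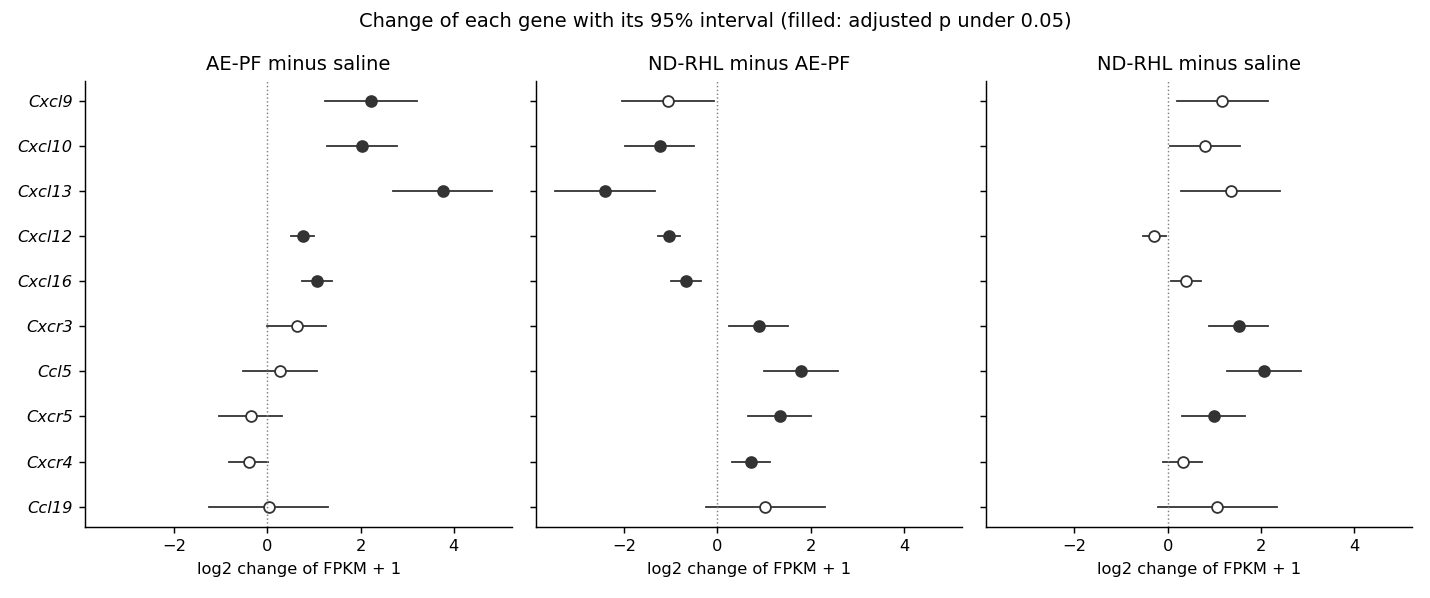
Log2 change of FPKM + 1 for each gene in the 3 comparisons, with 95% intervals from the limma fit; filled points have an adjusted p under 0.05. The upper 5 ligands lie right of 0 in AE-PF against saline and left of it in ND-RHL against AE-PF, where Cxcr3, Ccl5, Cxcr5 and Cxcr4 lie right of it.

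By level, Cxcl13 and Cxcl12 led in AE-PF lung (means of 68.1 ± 40.4 and 78.6 ± 4.66 FPKM, SD, n = 4), and their ranges overlapped. Cxcl16 and Cxcr4 came next at 35.8 ± 6.96 and 26.4 ± 8.01 FPKM, then Ccl5, with Cxcl10, Cxcl9, Cxcr3, Cxcr5 and Ccl19 below it. In ND-RHL lung Cxcr4 (42.9 ± 5.85 FPKM), Cxcl12 (37.8 ± 4.03 FPKM) and Ccl5 (35.7 ± 13.8 FPKM) had overlapping ranges, above Cxcl16 and Cxcl13. In saline lung Cxcl12 (46.4 ± 7.45 FPKM) and Cxcr4 (34.0 ± 3.41 FPKM) led, in ranges that did not overlap, and Cxcl9 was the lowest.

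Lymphocyte marker sums moved with Cxcr3, Cxcr4 and Cxcr5 in ND-RHL against AE-PF lung. Most markers of monocytes and macrophages, given below, went the other way there. Fewer cells of a type and less RNA per cell cannot be told apart in these bulk samples. Summed over 11 B cell markers, the level was 102 to 215 FPKM in ND-RHL, 19.54 to 76.9 in AE-PF and 57.6 to 68.9 in saline libraries. Of these markers 10 rose and 0 fell in ND-RHL against AE-PF, beside the rise of Cxcr5. Of all genes tested, 24.3% were called higher and 17.4% lower in that comparison. The 18 T cell markers summed to 92.4 to 188 FPKM in ND-RHL, 25.1 to 95.5 in AE-PF and 43.9 to 48.4 in saline libraries, with 8 higher and 0 lower in ND-RHL against AE-PF. For natural killer and cytotoxic cells, 12 markers summed to 70.9 to 122 FPKM in ND-RHL, 7.08 to 39.1 in AE-PF and 31.1 to 40.8 in saline libraries, and all 10 that could be tested rose in ND-RHL against AE-PF. No B or T cell marker was at 0 in any library, and Xcl1 of the cytotoxic list was at 0 in at least 1.

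In AE-PF library 2 the B, T and cytotoxic sums were the lowest of the 12 libraries, as were Cxcr4, Cxcr5, Ccl5 and Ccl19. Library 1 of AE-PF was the next lowest for B and cytotoxic markers. The part of these cells in the changes of Cxcr3, Ccl5, Cxcr5 and Cxcr4 was not tested. Markers of monocytes and macrophages, which make Cxcl9, Cxcl10 and Cxcl16, summed to 943 to 1239 FPKM in AE-PF libraries. The sums were 252 to 484 FPKM in ND-RHL and 166 to 195 FPKM in saline libraries. In ND-RHL against AE-PF 10 of these markers were lower. In that comparison 1 was higher, Ly6c2 (8.07 ± 0.801 FPKM in ND-RHL, 5.54 ± 0.677 FPKM in AE-PF). In AE-PF against saline 11 of 12 were higher. Endothelial and stromal cells, which make Cxcl12, went the other way: 8 of 10 endothelial markers fell and 1 rose in AE-PF against saline, and 5 of 10 fibroblast and pericyte markers fell and 2 rose. The 2 that rose were Pdgfrb and Cspg4, with log2 changes of 0.58 and 0.62 in AE-PF against saline and -0.74 and -0.86 in ND-RHL against AE-PF. Notch3 (21.8 ± 1.91 FPKM in AE-PF, 20.2 ± 2.28 FPKM in saline) and Pdgfra were not called in AE-PF against saline. In ND-RHL against AE-PF 8 endothelial markers rose and 1 fell, and 4 fibroblast and pericyte markers rose and 4 fell (Pdgfra, Pdgfrb, Cspg4 and Notch3). Their part in the ligand levels was not tested. Over all genes tested, 26.4% were called higher and 30.2% lower in AE-PF against saline, and 24.3% and 17.4% in ND-RHL against AE-PF. Of 6 thymus and lymph node markers, the thymic genes Rag1, Rag2, Dntt and Ptcra were at 0 in at least 1 library. Only 1 of the 6 could be tested, and it rose in ND-RHL against AE-PF. The lymphoid vessel genes Glycam1 and Madcam1, from another list, were also at 0 in some libraries and were highest in ND-RHL library 4.

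**Figure D4:**
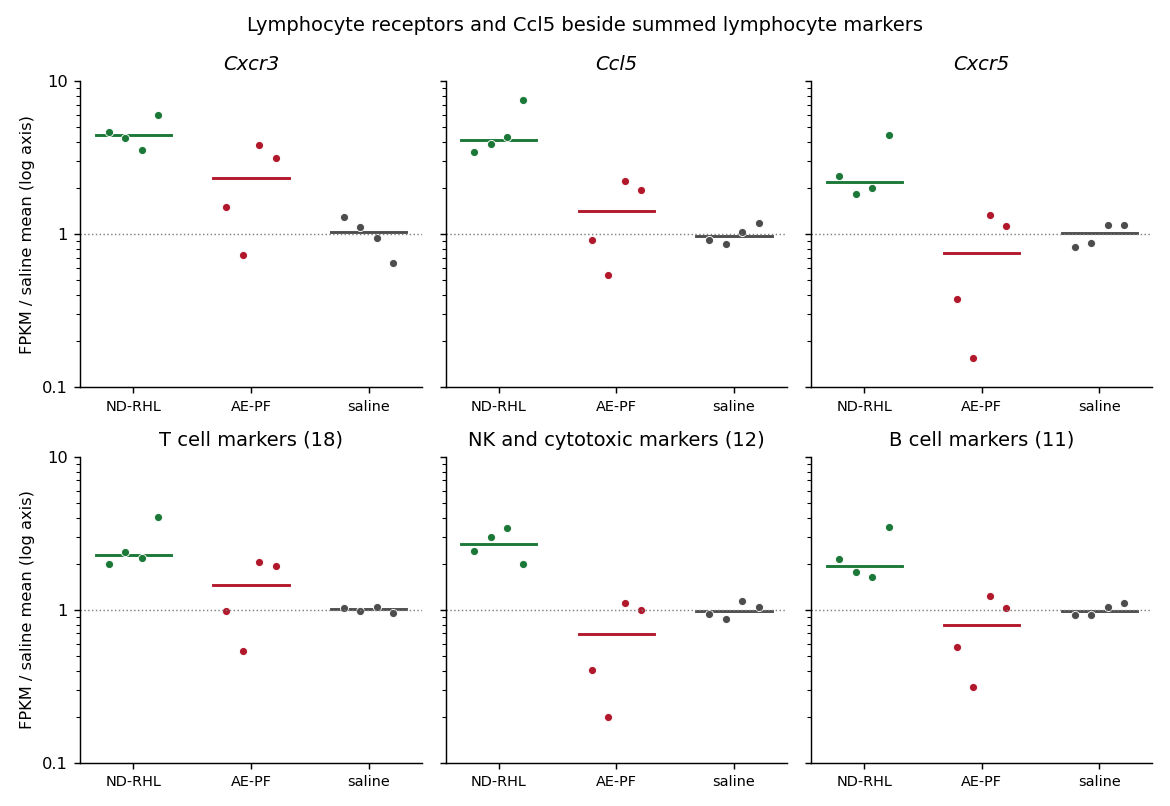
Cxcr3, Ccl5 and Cxcr5 (upper row) and the summed FPKM of 18 T cell, 12 natural killer and cytotoxic and 11 B cell markers (lower row) in each library, divided by the saline mean, on a log axis with lines at group medians. In all 6 panels the ND-RHL libraries lie above 1 and AE-PF library 2 is the lowest AE-PF library.

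Among 25 further ligands, receptors, scavengers and processing enzymes of the pathway, 21 could be tested. In AE-PF against saline 13 rose and 2 fell, with a median log2 change of 0.72 beside -0.03 over all genes. Of all genes, 26.4% were called higher and 30.2% lower there. In ND-RHL against AE-PF 2 rose and 11 fell (median -0.33 beside 0.06), and in ND-RHL against saline 6 rose and 2 fell (0.59 beside 0.03). Of all genes, 24.3% were called higher and 17.4% lower in ND-RHL against AE-PF, and 13.3% and 8.65% in ND-RHL against saline. Ccl8, a monocyte chemokine, was at 8.84 ± 2.93 FPKM in ND-RHL, 61.2 ± 21.1 FPKM in AE-PF and 4.35 ± 1.37 FPKM in saline lung (n = 4 each), and Ccl3 was at 2.29 ± 0.264 FPKM in ND-RHL, 4.13 ± 1.31 FPKM in AE-PF and 1.17 ± 0.188 FPKM in saline lung. In the comparisons with AE-PF, the 2 that ran against the rest were Dpp4 and Ackr4, the scavenger of Ccl19 and Ccl21. In ND-RHL against saline, Ackr4 was among the 6 that rose, Ackr3 was among the 2 that fell, and Dpp4 was not called.

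Ackr4 was at 2.13, 1.43, 2.39 and 2.91 FPKM in ND-RHL libraries, 0.153, 0.165, 0.297 and 0.257 FPKM in AE-PF libraries and 1.21, 0.973, 1.21 and 0.807 FPKM in saline libraries. The 3 groups did not overlap. Its log2 change was 1.38 in ND-RHL against AE-PF (SE 0.13, adjusted p = 4.31e-05), -0.75 in AE-PF against saline (adjusted p = 0.000672) and 0.63 in ND-RHL against saline (adjusted p = 0.00802).

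**Figure D5:**
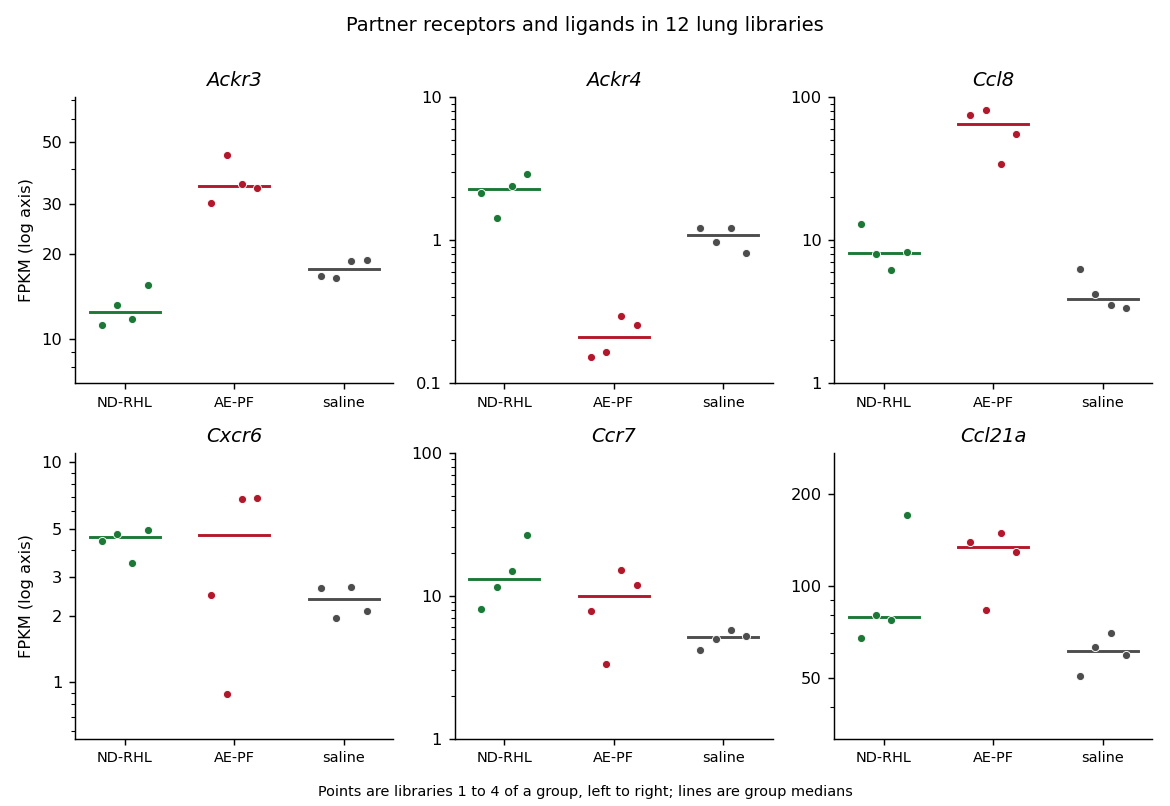
FPKM (log axis) of 6 partner genes in each library, with lines at group medians. Ackr3 and Ccl8 were highest and Ackr4 lowest in AE-PF lung, while Cxcr6, Ccr7 and Ccl21a had 1 or 2 libraries far from their group.

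Of 28 genes of the interferon gamma pathway, receptor chains and kinases as well as induced genes, 25 could be tested. In AE-PF against saline 6 rose and 4 fell, where 26.4% of all genes were called higher and 30.2% lower, and the median log2 change was 0.09 beside -0.03 over all genes. Of the 6, Ifngr1, Ifngr2, Jak1 and Jak2 are receptor chains and kinases. Those that rose included Jak2, a kinase of the receptor (29.8 ± 0.945 FPKM in AE-PF, 18.2 ± 0.703 FPKM in saline), the receptor chain Ifngr1 (93.1 ± 7.78 FPKM in AE-PF, 70.3 ± 4.32 FPKM in saline), the GTPase Iigp1 (24.8 ± 5.72 FPKM in AE-PF, 8.26 ± 0.985 FPKM in saline) and the nitric oxide synthase Nos2 (4.75 ± 1.68 FPKM in AE-PF, 1.06 ± 0.116 FPKM in saline; n = 4 each). Gbp4, a guanylate-binding protein, fell to 5.11 ± 2.88 FPKM in AE-PF, against 12.9 ± 0.685 FPKM in saline lung (-1.32, adjusted p = 0.00329).

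In ND-RHL against AE-PF 8 of these genes rose and 4 fell (median 0.34 beside 0.06). Of all genes, 24.3% were called higher and 17.4% lower there. The count of 12 past the threshold ranged from 6 to 15 over the alternatives. Gbp3, Gbp4 and Gbp7 rose, with log2 changes of 0.92, 1.44 and 0.57 (adjusted p of 0.00267, 0.00339 and 0.00362). The 4 that fell were Ifngr2, Jak2, Iigp1 and Nos2. Jak2, Iigp1 and Nos2 had log2 changes of -0.25, -0.49 and -0.70 (adjusted p of 0.00141, 0.0421 and 0.0166). The Iigp1 call was lost in 11 of 22 alternatives. In ND-RHL against saline 8 rose and 0 fell, where 13.3% of all genes were called higher and 8.65% lower. That count of 8 ranged from 2 to 16. With the replicate block, where Nos2 (adjusted p = 0.0511) and Gbp3 (adjusted p = 0.0621) no longer passed, 5 did. Jak2 (0.43, adjusted p = 0.000197) passed in each alternative run, and Psmb8 (0.72, adjusted p = 0.0297) and Nos2 (0.72, adjusted p = 0.0270) were lost in 8 each.

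With each group mean taken off, over 12 libraries, Cxcl9 followed Cxcl10 (Pearson r of 0.94), Ccl5 (0.91), Cxcr3 (0.89) and Cxcr5 (0.84), and Ccl5 followed Cxcr5 (0.96) and Cxcr4 (0.90). Cxcl13 ran against Cxcl16 (-0.74), Cxcr4 (-0.72) and Cxcl10 (-0.51). Cxcl12 was not close to any other member, with r between -0.44 and 0.07. These r are a description over libraries that share depth between genes. AE-PF library 2 is the lowest of its group for Cxcl9, Cxcl10, Cxcr3, Ccl5, Cxcr4 and Cxcr5. For the same genes ND-RHL library 4 is the highest of its group, by a narrow margin for Cxcl10.

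By the same measure, the non-members most like Cxcl9 were Sema4d (0.98), Trbc1, a constant region of the T cell receptor (0.98), and Cd247, its zeta chain (0.97). Most like Ccl5 were Adgrg5 (0.98), Mapkapk3 (0.98) and Rel, an NF-kB subunit (0.98). Most like Cxcl13 were Sccpdh (0.95), Slc20a2, a phosphate transporter (0.95), and Aspn, a small matrix proteoglycan (0.94). Most like Cxcl12 were Pip5k1c (0.93), Dhx34 (0.93) and Syf2 (0.91).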

How the data were processed

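Lung RNA of 12 mouse libraries, 4 per group, was measured by sequencing of polyadenylated RNA (NEBNext Ultra libraries, DNBSEQ-G400), per the labels' protocols. The authors deposited FPKM per gene and library. The submitters' processing notes name, with no role given, the tools STAR 2.7.9a, Trim Galore 0.6.6, DESeq2 1.30.1, FastQC and Subread 2.0.1 with featureCounts, and the build GRCm38. Of 34725 genes found by identifier in GENCODE M21, 731 had the table's start, so positions were taken from M21.

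Fragments and library totals were worked out from the FPKM steps with gene lengths that gave whole fragments within 0.0001, found for all 35599 genes. Genes were tested if 4 or more libraries reached an FPKM of 1. The fit used limma 3.58.1 in R 4.3.3, with a mean-variance trend, on log2 values of FPKM + 1, and 1 estimate of the spread over 12 libraries (9 residual degrees of freedom), 2-sided tests and Benjamini-Hochberg adjustment over all genes tested. All 10 members passed the filter; Cxcl9, Cxcl10 and Ccl19 did so without a saline library at 1, so their tests are not independent of the filter. Alternatives were other scalings, filters, pseudocounts (0.1 and 0.5), limma-voom on the fragments, 2-group fits, a replicate block and left-out libraries. The labels say nothing of what a replicate number marks. Deviations from the group means of same-numbered libraries correlated over 0.1 in all 4 pairs of ND-RHL and saline (0.114 to 0.397). But ND-RHL libraries 2 and 3 correlated best with saline libraries 3 and 2, so a pairing was not established. The main fit used no pairing, and the replicate block covered all 12 libraries, AE-PF included. Floors of 3 fragments cover counting error only.

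The members and lists were chosen with earlier results of these data known. Named genes are the members, 6 fixed partners, and the 3 genes most like each of 4 members. The rule also named up to 4 genes with the smallest p per pathway list and comparison. Art3, Zmynd15, Bcl9l, Dpp4, Ltb, Cr2, Krt13, Acta1, Glycam1, Madcam1, Ly6c2, Pdgfra, Pdgfrb, Cspg4, Notch3, Ifngr2 and Jak1 were added after their values were seen. Some genes of that rule are not reported here.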

Additional observations from a re-analysis of the deposited data

Results flagged for a closer look

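Of 48 sets of 4 libraries (the 10 members and 6 fixed partner genes in each group), 2 held a library far from the other 3, measured as its gap to the nearest library over the whole range on the log2(FPKM + 1) scale, with a limit of 0.829. Chance flags about 5% of such sets. Cxcr4 in ND-RHL library 1 was at 34.3 FPKM, and the other ND-RHL libraries were at 45.0 to 47.2 FPKM. Cxcl10 in saline library 2 was at 0.288 FPKM, on 12 fragments, and the other saline libraries were at 0.573 to 0.625 FPKM. Ccl19 in ND-RHL library 4 (14.9 FPKM) stayed only just under the limit.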

How the results depend on the processing

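Of the 16 calls among the 30 member values, 14 kept their direction and passed in each alternative that tested them; the exceptions were Cxcr3 in ND-RHL against AE-PF and Cxcr5 in ND-RHL against saline. Of the 14 values that did not pass, 8 passed somewhere. With a filter of FPKM 5 the low members drop out by construction, and the members called were 3 in AE-PF against saline (3 higher), 5 in ND-RHL against AE-PF (2 higher) and 1 in ND-RHL against saline (1 higher); of all genes 5710 were called in AE-PF against saline, in place of 8578, and 5 lymphoid organisation genes in ND-RHL against AE-PF, in place of 8. In ND-RHL against saline, 6 members passed as higher with only the 2 groups in the fit, and 6 with both AE-PF library 2 and ND-RHL library 4 left out. Interferon gamma genes past the threshold in ND-RHL against AE-PF were 7 with no filter and 6 with 2 groups, in place of 12, and in ND-RHL against saline 2 and 16, in place of 8; lymphoid organisation genes in ND-RHL against AE-PF were 5 with 2 groups, and pathway partners in ND-RHL against saline 4 with no filter, in place of 8. The ratio of Cxcl9 to Cxcl10 in ND-RHL against AE-PF turned to -0.058 with both those libraries left out, and ranged from 0.037 to 0.312 leaving out 1 library. The cause of these shifts was not tested.

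Leaving out 1 library at a time gave 5 to 6 members called in AE-PF against saline (0 to 1 lower), 7 to 8 in ND-RHL against AE-PF, and 2 to 7 in ND-RHL against saline (2 to 7 higher, 0 to 1 lower), with 7 without AE-PF library 2. All genes called in ND-RHL against saline ranged from 2008 (without saline library 2) to 3953, beside 3323, and were 2083 without saline library 1. Interferon gamma genes ranged from 7 to 15 in ND-RHL against AE-PF and from 2 (without saline library 1, 2 or 4, or ND-RHL library 2) to 13 (without AE-PF library 2) in ND-RHL against saline. Pathway partners ranged from 3 (without saline library 3) to 11 in ND-RHL against saline, and lymphoid organisation genes from 2 to 4 there and from 6 to 11 in ND-RHL against AE-PF. Signs that turned, none of them called: Ccl19 in AE-PF against saline (-0.10 with pseudocount 0.1, -0.15 with limma-voom, -0.16 to 0.20 leaving out a library), Cxcr6 (-0.16 without AE-PF library 2, -0.21 with both out, -0.16 to 0.53 leaving out a library) and Ccr7 (-0.014 with both out, 0.28 to 0.91 leaving out a library) in ND-RHL against AE-PF, and Ccr1 in ND-RHL against saline (-0.0395 with quantile normalisation, -0.17 to 0.14 leaving out a library).

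Of the 8 same-numbered pairs with an AE-PF library, 1 had a correlation of deviations over 0.1 (range -0.387 to 0.339), and of all 12 pairs 4 correlated best with their own number. With the replicate block, 6 members were called in AE-PF against saline (1 lower, Cxcr4) and 8 in ND-RHL against AE-PF. In ND-RHL against saline the block left 3 members called, with no call of a member changed. There 5 interferon gamma genes were called, in place of 8. Depth limits Cxcl9 and Cxcl10 in saline lung and Ccl19 throughout, where 3 to 30 fragments stand behind most values.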

Other observations

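Of 22 genes that organise lymphoid tissue, 19 could be tested, and 12 rose and 0 fell in AE-PF against saline, where 26.4% of all genes were called higher (median log2 change 0.45 beside -0.03 over all genes). Tnfrsf1a, a receptor for tumour necrosis factor and lymphotoxin, was at 60.7 ± 2.96 FPKM in ND-RHL, 88.8 ± 3.31 FPKM in AE-PF and 62.4 ± 2.30 FPKM in saline lung (SD, n = 4 each). Tnfrsf1b, the other such receptor, was at 27.0 ± 4.12 FPKM in ND-RHL, 41.8 ± 7.68 FPKM in AE-PF and 18.7 ± 1.47 FPKM in saline lung. Bst1, a marker of stroma and myeloid cells, was at 9.44 ± 1.74 FPKM in ND-RHL, 15.5 ± 1.55 FPKM in AE-PF and 5.66 ± 1.33 FPKM in saline lung. The adhesion molecule Vcam1 was at 11.3 ± 0.241 FPKM in ND-RHL, 15.3 ± 2.24 FPKM in AE-PF and 10.2 ± 0.432 FPKM in saline lung.

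In ND-RHL against AE-PF 1 of these genes rose (Cr2, the complement receptor of B cells) and 7 fell, among them Ltbr, the lymphotoxin beta receptor (33.7 ± 2.82 FPKM in ND-RHL, 46.0 ± 2.93 FPKM in AE-PF and 38.0 ± 0.652 FPKM in saline lung). In ND-RHL against saline 3 rose (Tnfrsf1b, Bst1 and Il7r) and 0 fell. Of all genes, 24.3% were called higher and 17.4% lower in ND-RHL against AE-PF, and 13.3% and 8.65% in ND-RHL against saline. Il7r, the interleukin 7 receptor of lymphocytes, was at 6.98 ± 2.18 FPKM in ND-RHL, 8.81 ± 2.75 FPKM in AE-PF and 2.95 ± 0.233 FPKM in saline lung (n = 4 each). Ltb, the ligand of Ltbr made by lymphocytes, was at 14.7, 11.2, 12.7 and 29.7 FPKM in ND-RHL libraries, 6.36, 4.09, 16.8 and 16.8 FPKM in AE-PF libraries and 8.18 to 9.61 FPKM in saline libraries, and passed in no comparison.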
